A study of Mus musculus with 12 samples.

Results

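The SR proteins, the hnRNPs and 7 related splicing regulators (Rbm39, Ddx5, Ddx17, Tra2a, Tra2b, Ptbp1 and Rbm25) were examined in KPC cells, a mouse PDAC line, left untreated or treated with Cis (cisplatin, 20 μM per the study's methods) for 6 or 21 h. Members were chosen by gene symbol (Srsf followed by a number, any symbol starting with Hnrnp, and the 7 single genes), after RNA and footprint changes of these same libraries had been seen. The counts and adjusted p-values given for them therefore describe these libraries and lend no independent support. The rule took 38 of 15803 transcripts that had a read in any library, namely 11 SR proteins, 20 hnRNPs and the 7 related regulators, and 37 of them were expressed highly enough to test. Srsf12 was the exception, with 1 read in each of 2 RNA-seq libraries and no footprint in any library.

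Each of the 3 groups had 2 ribosome profiling libraries and 2 RNA-seq libraries, 12 in all, and the same untreated libraries were the control for both times. The labels call the control cells untreated, whereas the methods name PBS for 6 or 21 h, and which of these applied to the control libraries is not labelled. In general, the methods state that experiments were done at least 2 times or on independent samples. They do not say whether these libraries came from separate cultures. The p-values therefore measure only the spread between these libraries, which may be technical. In ribosome profiling the mRNA fragments covered by ribosomes (footprints) are sequenced, RNA-seq measures the mRNA itself, and the change of footprints relative to the change of RNA is called TE, the translation efficiency.

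SR proteins carry RNA-recognition motifs and a tail rich in arginine and serine, bind enhancers in exons and recruit the spliceosome. The hnRNPs coat nascent transcripts and often work against exon inclusion. Many genes of both families also make alternative mRNAs with an early stop codon, which are removed by nonsense-mediated decay and through which the proteins limit their own levels. The deposited values give 1 representative transcript per gene, so such mRNAs were not separated from the coding form.

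Footprint libraries held 3375480 to 5204127 reads and RNA-seq libraries 1985344 to 2901692, of which 862476 to 1341584 remained without the transcripts of Lars2, Tmem38b and Mettl26. All 6 epithelial markers were listed, with a summed RNA level of 1316 to 1523 RPKM (reads scaled by length and by the library's total), against at most 1.89 for 6 fibroblast markers and 0.170 for 3 endothelial markers. Of 6 leukocyte markers, Ptprc, Adgre1, Lyz2 and Cd3e were at 0 in all RNA-seq libraries. The RNA sum of the list was 0.403 to 1.03 RPKM in untreated cells, 0 at 6 h and 2.13 to 4.48 at 21 h. In footprints only Cd3e was at 0 throughout. The footprint sum was 2.07 to 2.35 RPKM in untreated cells, 1.73 to 2.31 at 6 h and 3.76 to 10.4 at 21 h. Of 5 acinar markers, Cpa1, Ptf1a and Cel were at 0 in RNA-seq and footprints alike, and the RNA sum was 0.432 to 2.80 RPKM. The summed footprints of the epithelial markers were 9101 to 9781 RPKM in untreated cells and 6697 to 6838 at 21 h, and the part of these marker shifts in the results was not tested. In bulk samples fewer cells of a type and less RNA per cell cannot be told apart.

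In untreated cells the 37 members had a median of 296.6 RPKM in footprints (28.9 to 5721) and 45.9 RPKM in RNA (2.90 to 564), where the medians over the 9295 transcripts tested for TE were 21.8 and 6.85 RPKM. Hnrnpa3 stood at the top of both scales and Hnrnph3 at the bottom of both. The ratio of footprint to RNA RPKM, which compares reads per coding length with reads per transcript length, had a median of 7.98 among the members and 3.44 among all those transcripts. It ran from 0.826 in Hnrnpul1, a nuclear protein related to Hnrnpu, to 29.7 in Hnrnpr, an RNA-binding protein closely related to Syncrip. The representative transcript of Hnrnpr has 21452 bases for a coding sequence of 1896 bases, and that of Hnrnpd, with the next highest ratio of 27.1, has 6811 bases for 1065. The ratios of these genes depend on the transcript chosen, whereas a change between groups uses the same length throughout. The members' genes were also short, with a median span of 13.0 kb in RefSeq against 22.6 kb for the transcripts tested.

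**Figure D1:**
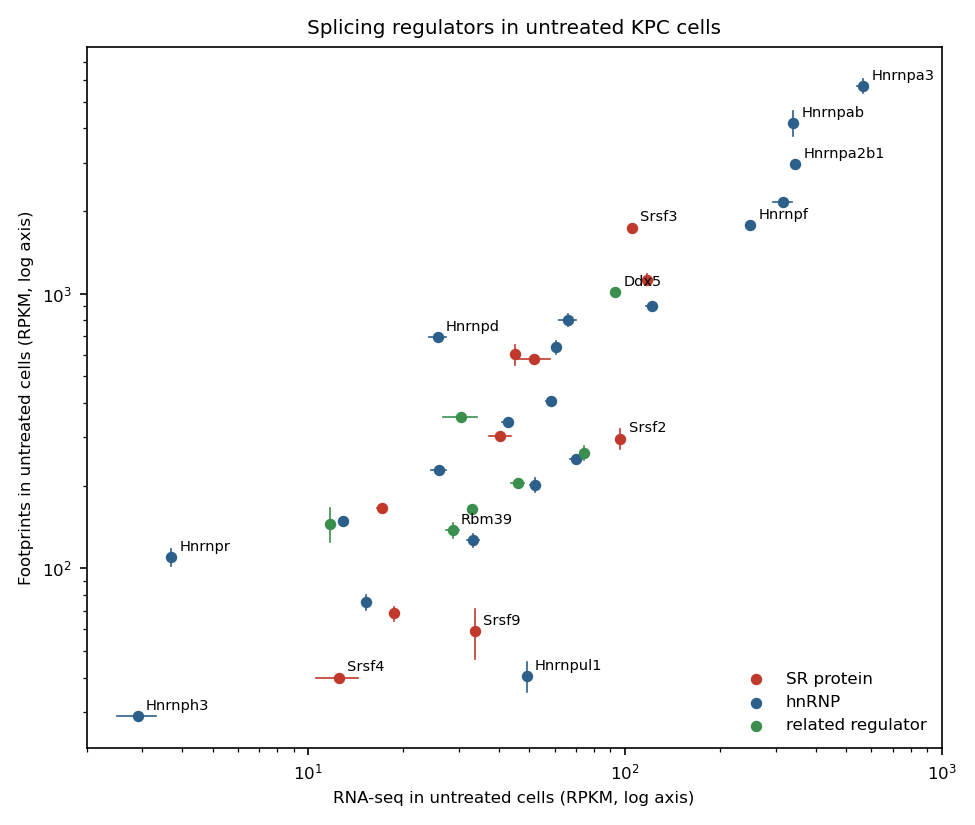
Levels of the 37 members in untreated KPC cells, RNA-seq RPKM on the x axis and footprint RPKM on the y axis, both on log axes. Points are means and lines span the 2 libraries of each assay; Hnrnpa3 lies highest at 5721 footprint RPKM, and Hnrnpul1 and Srsf9 lie lowest relative to their RNA.

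Few members were called against untreated cells at 6 h. At 21 h most were called for footprints, and fewer for RNA and TE. Overlap between groups is stated for RPKM as deposited, before scaling. After scaling, both treated libraries lay on the same side of both untreated ones in 54.4% of all transcripts for footprints at 6 h. The share was 70.3% at 21 h, and for RNA it was 44.0% and 63.9%. Among the members these shares were 81.1% and 83.8% for footprints and 70.3% and 67.6% for RNA, so a lack of overlap was common. A call means an adjusted p under 0.05 from limma, adjusted by Benjamini-Hochberg over all transcripts tested. At 6 h, footprints of 1 member (Hnrnpab) rose and those of 2 (Hnrnpa1 and Hnrnpd) fell, where 1.05% of all transcripts were called higher and 0.992% lower. No RNA change was called at 6 h among the members, and the background was 0% of 9443 transcripts. At an unadjusted p under 0.05, 8 members and 1086 transcripts passed for RNA at 6 h, and limma's voom on the recovered reads called 1 member higher and 1 lower, of 57 and 172 transcripts. No TE change was called at 6 h either, with a background of 0%, while 6 members and 710 of 9295 transcripts had an unadjusted p under 0.05. For TE at 6 h voom called 1 member higher and 1 lower, and 4 transcripts higher and 10 lower in all.

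At 21 h, footprints of 8 members rose and those of 14 fell, against a background of 18.9% called higher and 20.2% called lower. Background shares at both times are not matched for level. The members' median in untreated cells was 296.6 footprint RPKM, against 21.8 over the transcripts tested for TE. RNA of 9 members rose and that of 6 fell, against 11.6% and 12.2%. TE of 3 members fell (Rbm39, Ddx5 and Hnrnpf) and TE of 0 rose by limma (0 by voom as well), against 0.151% called lower and 0.258% called higher, and 10 members and 1183 of 9295 transcripts had an unadjusted p under 0.05. SR footprints rose in 5 of 10 and fell in 2, with a median log2 change of 0.32, and hnRNP footprints rose in 1 of 20 and fell in 10, with a median of -0.30. For RNA, 5 of 10 SR proteins rose and 0 fell (median 0.34), and 0 of 20 hnRNPs rose and 5 fell (median -0.13). The medians over all transcripts were 0.01 for footprints and 0.02 for RNA. The signs of these 4 family medians were the same without scaling of the RPKM, with quantile normalization and with voom, although quantile normalization called 2 hnRNPs higher for RNA. Without scaling, the hnRNP median for RNA was -0.05 and 3 hnRNPs fell. These shares set the families side by side and do not test a difference between them.

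**Figure D2:**
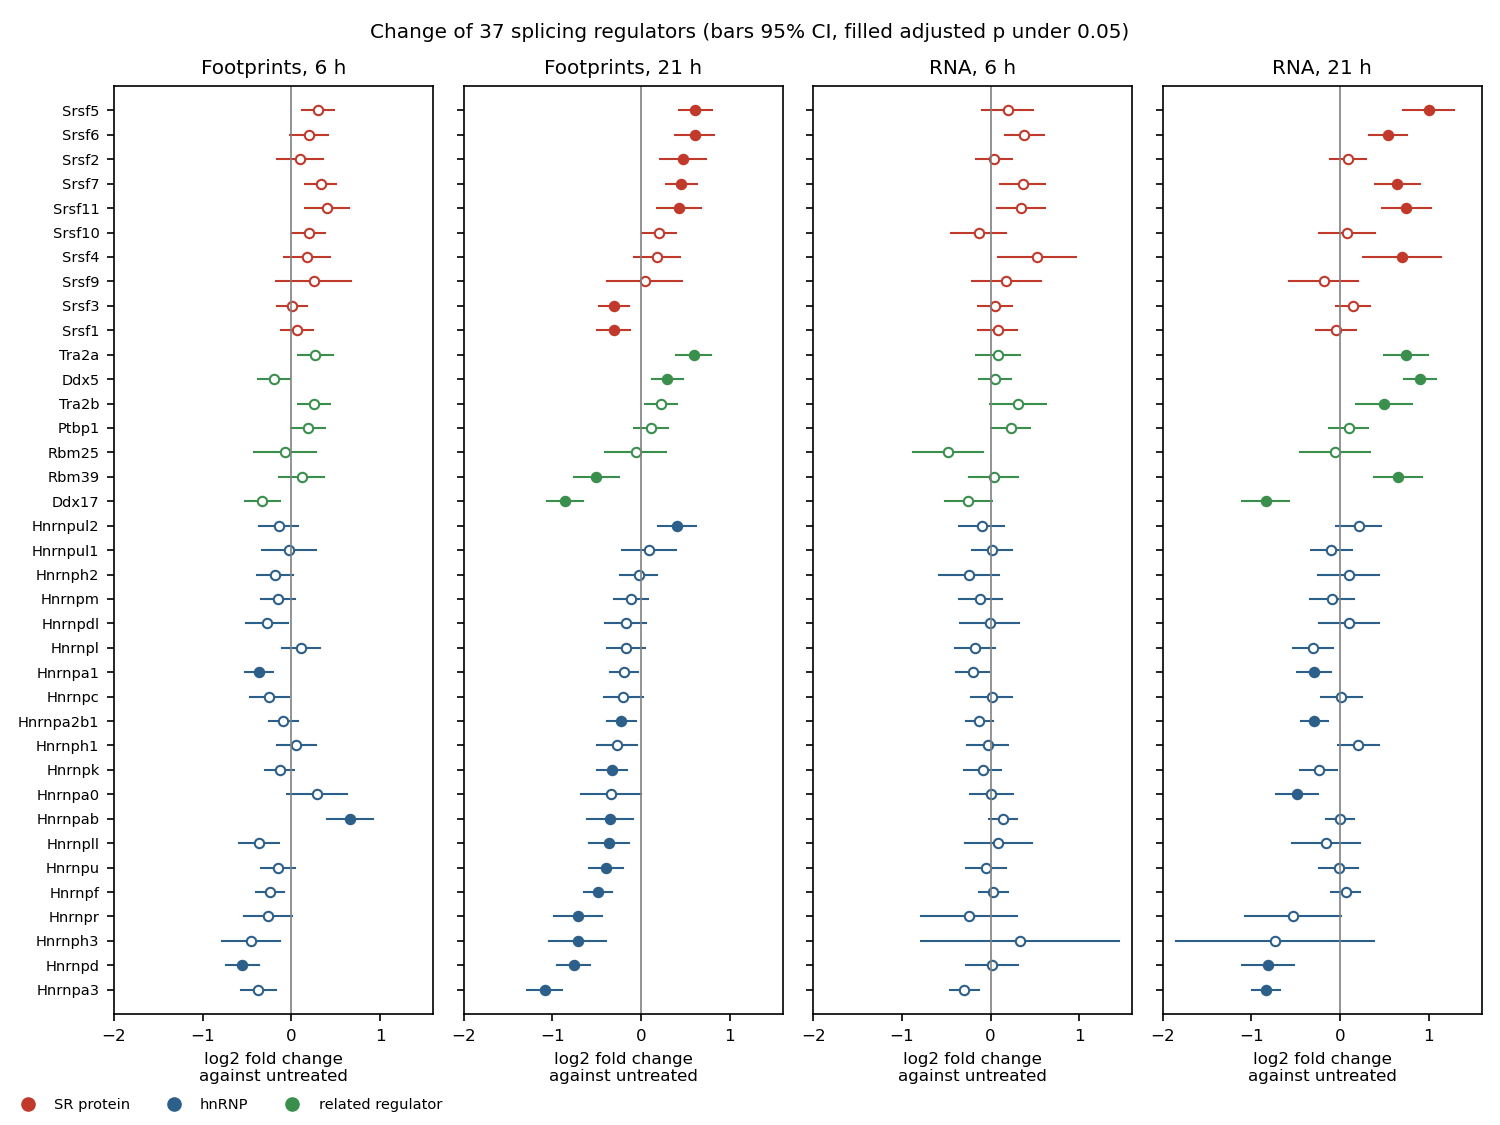
Log2 fold change against untreated cells (x axes) of the 37 members (rows, grouped by family and ordered by the footprint change at 21 h) in footprints and RNA at 6 and 21 h. Points are limma estimates, bars their 95% confidence intervals, and filled points have an adjusted p under 0.05; the SR proteins lie mostly right of 0 and the hnRNPs mostly left of it.

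Promoters are shown for the members whose RNA moved far in either direction and that have a single annotated start (Srsf5 and Tra2a among the rises, Hnrnpa3 and Hnrnpd among the falls), and for both starts of Rbm39, whose RNA and footprints went apart. The sequences are the 120 bases before the start in RefSeq on GRCm38.p6, 5′ to 3′ on the strand of the gene, and capitals mark, on either strand, the CCAAT box, the GC box core GGGCGG, the word TGACG of the cAMP response element and the TATA box word TATAAA.
Srsf5, chr12:80945379-80945498, + strand: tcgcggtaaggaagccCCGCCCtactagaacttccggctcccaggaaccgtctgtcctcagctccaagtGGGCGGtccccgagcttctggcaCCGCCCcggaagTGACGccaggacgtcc
Tra2a, chr6:49264053-49264172, - strand: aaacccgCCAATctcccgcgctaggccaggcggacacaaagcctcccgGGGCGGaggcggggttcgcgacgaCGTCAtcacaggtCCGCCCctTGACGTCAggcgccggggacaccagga
Hnrnpa3, chr2:75659139-75659258, + strand: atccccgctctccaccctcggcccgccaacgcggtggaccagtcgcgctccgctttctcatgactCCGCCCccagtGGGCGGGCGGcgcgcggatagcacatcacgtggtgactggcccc
Hnrnpd, chr5:99978939-99979058, - strand: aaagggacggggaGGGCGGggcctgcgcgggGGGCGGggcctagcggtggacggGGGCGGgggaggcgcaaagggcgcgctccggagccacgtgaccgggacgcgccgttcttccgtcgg
Rbm39 start 1, chr2:156180239-156180358, - strand: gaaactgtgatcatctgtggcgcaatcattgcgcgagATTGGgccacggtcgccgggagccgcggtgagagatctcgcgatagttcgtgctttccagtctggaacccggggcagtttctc
Rbm39 start 2, chr2:156179581-156179700, - strand: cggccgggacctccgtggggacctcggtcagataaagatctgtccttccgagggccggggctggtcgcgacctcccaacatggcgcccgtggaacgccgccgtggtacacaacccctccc
GGGCGG stands in these 120 bases of all 4 members that have a single start, rising and falling alike, and at neither start of Rbm39. TGACG stands in both rising members, and Hnrnpa3, a falling member, has it further out within the 250 bases before its start.

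Over the 250 bases before each start, GGGCGG was present in 37 of 52 starts of 36 members (71.2%), in 60.4% of 9637 starts of genes tested for TE and in 32.7% of all 32851 starts. TGACG was present in 44.2% of the members' starts and in 27.9% and 17.8% of the others, CCAAT in 46.2%, 35.8% and 33.9%, and TATAAA in 11.5%, 6.36% and 12.4%. The words were searched on both strands, and none of them contains another. Hnrnpll and Hnrnpul2 had no entry. A word is a description of these letters and says nothing of whether a factor binds there.

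Rbm39, a U2AF-related factor that helps to select the 3′ splice site, gained RNA and lost footprints at 21 h. Its footprints were 129 and 146 RPKM in the untreated libraries, 146 and 155 at 6 h, and 107 and 91.5 at 21 h. Its RNA was 27.2 and 30.0 RPKM in the untreated libraries, 25.8 and 30.2 at 6 h, and 46.8 and 49.0 at 21 h. At 6 h both assays were at the untreated level or overlapped it, whereas at 21 h neither assay overlapped it and they lay on opposite sides. The log2 change at 21 h was -0.50 for footprints (SE 0.11, limma adjusted p = 0.00814) and 0.65 for RNA (SE 0.12, limma adjusted p = 0.005). TE fell by 1.15 on the log2 scale (95% confidence interval -1.52 to -0.79, limma adjusted p = 0.0219), and the ratio of group means went from 4.80 to 2.08. These values rest on 508 to 1087 footprint reads and 144 to 306 RNA reads per library.

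Of 9295 transcripts, 4 (0.043%) were called higher for RNA and lower for footprints at 21 h, and Rbm39 was the 1 member among them. Its TE change ranked 91 from the lowest, within the lowest 0.979% of transcripts. The direction held in all 23 alternatives, in which TE fell by between 1.03 and 1.26 on the log2 scale. The TE call was lost in 10 of them, with limma adjusted p-values from 0.0521 to 0.142, namely with eBayes without trend, with the groups compared only, with the replicate number as a block, and without untreated footprint replicate 2, either 6 h footprint replicate, 21 h footprint replicate 2, either untreated RNA replicate or 21 h RNA replicate 2. The footprint call was lost without untreated replicate 2 (limma adjusted p = 0.055) or 21 h replicate 2 (0.0504), and the RNA call held throughout.

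Ddx5 and Ddx17, paralogous DEAD-box RNA helicases that act in splicing and transcription, moved in opposite directions at 21 h. Ddx5 footprints were 991 and 1032 RPKM in untreated libraries, 921 and 862 at 6 h, and 1308 and 1244 at 21 h. Its RNA was 91.8 and 94.4 RPKM, then 92.0 and 91.4, and then 177 and 192. Both assays were above every untreated library at 21 h, and RNA was raised further than footprints. The log2 changes were 0.30 for footprints (SE 0.08, limma adjusted p = 0.0151) and 0.90 for RNA (SE 0.08, limma adjusted p = 0.000135), and TE fell by 0.60 on the log2 scale (limma adjusted p = 0.036). The TE call was lost in 12 of 23 alternatives (limma adjusted p-values over the alternatives 3.45e-05 to 0.233, log2 values -0.65 to -0.55), 8 of which left out 1 library. The footprint call was lost with eBayes without trend (limma adjusted p = 0.0889), and without untreated replicate 1 or 21 h replicate 1.

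Ddx17 footprints were 166 and 162 RPKM in untreated libraries, 127 and 137 at 6 h, and 95.1 and 90.0 at 21 h. Its RNA was 32.4 and 33.5 RPKM, then 26.0 and 26.7, and then 18.5 and 20.1. Both assays stepped down at each time without overlap between groups, although neither change was called at 6 h (limma adjusted p = 0.0926 for footprints and 0.455 for RNA). At 21 h the log2 change was -0.86 for footprints (SE 0.09, limma adjusted p = 0.000199) and -0.84 for RNA (SE 0.12, limma adjusted p = 0.00132), and the log2 TE change was -0.02 (limma adjusted p = 0.974). The Ddx17 and Ddx5 calls for RNA were lost in none of the alternatives.

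Tra2a and Tra2b are SR-like proteins that bind purine-rich exonic enhancers. Tra2a footprints were 203 and 207 RPKM in untreated libraries, 244 and 256 at 6 h, and 302 and 334 at 21 h, rising at 21 h by 0.59 on the log2 scale (SE 0.09, limma adjusted p = 0.00105). Its RNA was 43.8 and 47.9 RPKM, 45.9 and 46.7 at 6 h, and 86.6 and 77.1 at 21 h, a log2 change of 0.75 (SE 0.11, limma adjusted p = 0.00176). Tra2a RNA overlapped the untreated libraries at 6 h, although not after scaling, and lay above them at 21 h, and its footprints lay above them at both times. Tra2b footprints were 367 and 343 RPKM, 427 and 431 at 6 h, and 408 and 445 at 21 h, with a log2 change at 21 h of 0.23 (limma adjusted p = 0.0518). Its RNA was 26.6 and 34.2 RPKM, 38.6 and 33.2 at 6 h, and 45.9 and 44.8 at 21 h, and rose by 0.50 on the log2 scale (SE 0.14, limma adjusted p = 0.0305). The Tra2b RNA call was lost without the filter on low RPKM, with quantile normalization and with eBayes without trend. It was also lost without untreated replicate 1, 21 h replicate 1 or 21 h replicate 2.

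Ptbp1, a repressor of exons that binds polypyrimidine tracts, and Rbm25, a speckle-associated regulator, were not called in any comparison. Ptbp1 footprints were 279 and 247 RPKM in untreated libraries, 302 and 300.3 at 6 h, and 283 and 300.1 at 21 h, and its RNA was 76.0 and 72.7, 82.3 and 84.1, and 77.0 and 92.1 RPKM. Rbm25 footprints were 125 and 166 RPKM, 128 and 149 at 6 h, and 150.2 and 133 at 21 h, and its RNA was 11.6 and 11.8, 8.82 and 7.07, and 12.5 and 11.4 RPKM. As deposited, the treated Ptbp1 libraries were all above the untreated ones, and after scaling the groups overlapped in both assays at 21 h (log2 change at 21 h 0.11 for footprints and 0.10 for RNA, limma adjusted p = 0.318 and 0.522). Rbm25 RNA was below the untreated libraries at 6 h (log2 change -0.48, limma adjusted p = 0.364) and overlapped them at 21 h.

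Among the SR proteins, Srsf5 had the largest RNA rise. Its footprints were 572 and 581 RPKM in untreated libraries, 749 and 685 at 6 h, and 936 and 876 at 21 h. Its RNA was 45.0 and 58.2 RPKM in untreated libraries, 59.9 and 52.3 at 6 h, and 103 and 115 at 21 h. The footprint groups did not overlap at any step, while RNA at 6 h overlapped the untreated libraries and lay above them at 21 h. At 21 h the log2 change was 0.61 for footprints (SE 0.08, limma adjusted p = 0.000629) and 1.0 for RNA (SE 0.13, limma adjusted p = 0.00081), and both calls held in all alternatives.

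Srsf6, Srsf7 and Srsf11, regulators of exon choice of the same family, rose in both assays at 21 h. Srsf6 footprints were 653 and 551 RPKM in untreated libraries, 702 and 690.1 at 6 h, and 882 and 993 at 21 h, and its RNA was 43.9 and 46.2, 55.7 and 56.5, and 66.2 and 73.0 RPKM. The log2 change of Srsf6 at 21 h was 0.61 for footprints (SE 0.10, limma adjusted p = 0.00153) and 0.54 for RNA (SE 0.10, limma adjusted p = 0.00408). Srsf7, which also takes part in mRNA export, had footprints of 298 and 307 RPKM, then 393 and 377, and then 426 and 427, with RNA of 43.7 and 37.2, 49.3 and 50.0, and 65.7 and 68.8 RPKM. In both genes each assay lay above all untreated libraries from 6 h on. The log2 change of Srsf7 at 21 h was 0.46 for footprints (SE 0.08, limma adjusted p = 0.00198) and 0.65 for RNA (SE 0.11, limma adjusted p = 0.00356).

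Srsf11 footprints were 64.6 and 72.6 RPKM in untreated libraries, 92.6 and 90.6 at 6 h, and 101 and 88.9 at 21 h, a log2 change at 21 h of 0.43 (SE 0.11, limma adjusted p = 0.0145). Its RNA was 18.6 and 18.8 RPKM, 23.5 and 21.9, and 32.2 and 35.0, a log2 change of 0.75 (SE 0.12, limma adjusted p = 0.0026). Between 6 and 21 h the log2 change was 0.03 for footprints and 0.40 for RNA (limma adjusted p = 0.876 and 0.052). Srsf2, also known as SC35 and used as a marker of nuclear speckles, was called in footprints alone. Its footprints were 322 and 271 RPKM, 319 and 320.4 at 6 h, and 382 and 465 at 21 h (log2 change 0.47, SE 0.11, limma adjusted p = 0.0105), and its RNA was 96.5 and 97.3, 91.0 and 99.0, and 103 and 117 RPKM (log2 change 0.09, limma adjusted p = 0.495). The Srsf2 footprint call was lost with eBayes without trend, and without untreated replicate 2 or 21 h replicate 2.

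Srsf4 gained RNA with no called change of footprints. Its RNA was 10.6 and 14.4 RPKM in untreated libraries, 17.9 and 16.5 at 6 h, and 25.1 and 18.7 at 21 h (log2 change 0.70, SE 0.20, limma adjusted p = 0.029), and its footprints were 39.1 and 40.9, 45.4 and 46.3, and 49.7 and 43.5 RPKM (log2 change 0.18, limma adjusted p = 0.242). All treated libraries were above the untreated ones in both assays. The RNA call was lost without the filter on low RPKM, with quantile normalization and with eBayes without trend. It was also lost without untreated replicate 1 or 21 h replicate 1. Srsf1 and Srsf3, the SR proteins with the highest footprint RPKM, were the exceptions of the family. Their footprints fell by 0.31 on the log2 scale each (limma adjusted p = 0.0171 and 0.0111), with log2 RNA changes of -0.05 and 0.15 that were not called. Srsf9 and Srsf10 were not called in either assay at 21 h. At 6 h, footprints of all 10 SR proteins had a log2 change above 0 (0.00 to 0.40), of which 0 were called by limma, 4 had an unadjusted p under 0.05 and voom called 3. Over all 10383 transcripts, 5025 had a log2 change above 0 in that comparison and 2217 had an unadjusted p under 0.05. Voom called 454 of them higher and 822 lower. With quantile normalization 9 of the 10 were above 0.

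**Figure D3:**
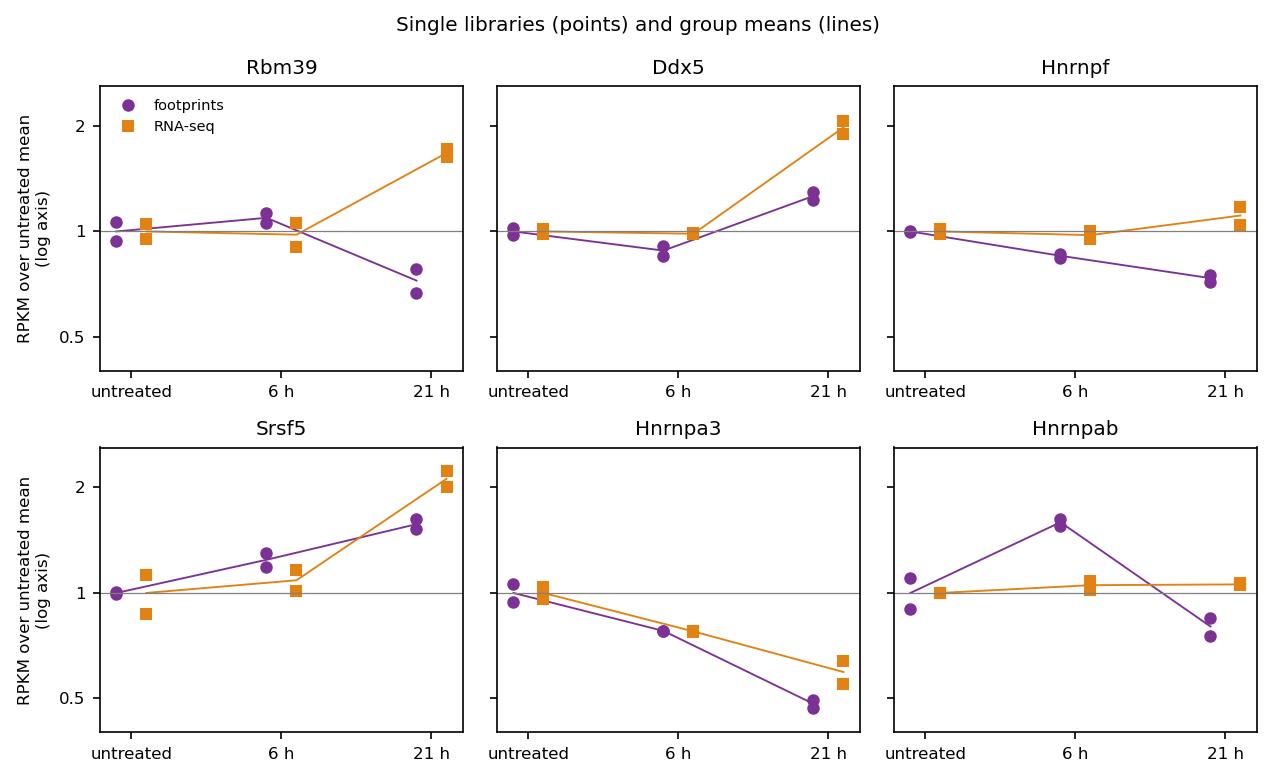
RPKM as deposited of 6 members in each library, divided by the mean of the untreated libraries of the same assay (log axis), for footprints (circles) and RNA-seq (squares). Lines join group means; Rbm39 footprints and RNA part at 21 h, Ddx5 RNA is raised above its footprints, and Hnrnpab footprints peak at 6 h over a nearly flat RNA level.

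Among the hnRNPs, Hnrnpa3, a member of the A/B group that binds nascent RNA, had the largest fall. Its footprints were 5381 and 6061 RPKM in untreated libraries, 4446 and 4469 at 6 h, and 2841 and 2682 at 21 h. Its RNA was 542 and 586 RPKM in untreated libraries, 439.7 and 436 at 6 h, and 311 and 360.1 at 21 h. Both assays fell at each step without overlap, to a log2 change at 21 h of -1.09 for footprints (SE 0.09, limma adjusted p = 6.25e-05) and -0.84 for RNA (SE 0.07, limma adjusted p = 0.000113). Both calls held in all alternatives.

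Hnrnpd, also known as AUF1 and involved in the decay of AU-rich mRNAs, had fewer footprints at both times and less RNA at 21 h. Its footprints were 690.5 and 702 RPKM in untreated libraries, 469 and 490.1 at 6 h, and 447 and 399.8 at 21 h. Its RNA was 24.0 and 27.3 RPKM in untreated libraries, 23.7 and 25.8 at 6 h, and 14.8 and 15.7 at 21 h. Footprints lay below the untreated libraries at both times, whereas RNA overlapped them at 6 h and lay below them at 21 h. The log2 change of footprints was -0.55 at 6 h (SE 0.08, limma adjusted p = 0.0285) and -0.76 at 21 h (SE 0.08, limma adjusted p = 0.000264), and that of RNA was 0.02 and -0.81 (SE 0.13, limma adjusted p = 0.00243 at 21 h). TE at 6 h changed by -0.57 on the log2 scale and was not called (limma adjusted p = 0.253). The 6 h footprint call was lost without any one of the untreated or 6 h footprint libraries. It was also lost without the filter on low RPKM, with eBayes without trend and with a replicate block. The calls at 21 h held in all alternatives.

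Hnrnpab, which binds RNA and CArG-type DNA elements, moved both ways in footprints, with RNA changes that were not called. Its footprints were 3755 and 4618 RPKM in untreated libraries, 6498 and 6825 at 6 h, and 3562 and 3155 at 21 h. Its RNA was 341 and 340.1 RPKM, then 369 and 347, and then 362 and 358. No footprint group overlapped another, and 6 h was the highest. The log2 change of footprints was 0.66 at 6 h (SE 0.11, limma adjusted p = 0.0343) and -0.35 at 21 h (SE 0.11, limma adjusted p = 0.0396), with RNA at 0.14 and 0.00. RNA at 6 h lay above both untreated libraries. TE was not called at either time, with log2 changes of 0.52 at 6 h and -0.35 at 21 h (limma adjusted p = 0.325 and 0.337). The 6 h footprint call was lost without untreated replicate 1 or either 6 h replicate. It was also lost without the filter on low RPKM, with eBayes without trend and with a replicate block. The untreated libraries also lay further apart than those of the other groups. How the 21 h footprint call fared in the alternatives is not given here.

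Hnrnpa1, a repressor of exon inclusion, had footprints of 2132 and 2175 RPKM in untreated libraries, 1697 and 1671 at 6 h, and 1955 and 1910.2 at 21 h. Its RNA was 294 and 338 RPKM, 259 and 263 at 6 h, and 252 and 294 at 21 h, so that RNA at 21 h overlapped the untreated libraries on this scale. Footprints were lowest at 6 h (log2 change -0.37, SE 0.07, limma adjusted p = 0.0385) and lay between the other groups at 21 h (-0.19, limma adjusted p = 0.0565). The 6 h footprint call was lost without any one of the untreated or 6 h libraries. It was also lost without the filter on low RPKM, with eBayes without trend and with a replicate block. RNA at 21 h fell by 0.29 on the log2 scale (limma adjusted p = 0.0316), a call lost without untreated replicate 2 or 21 h replicate 1. Without scaling the RNA call was lost too (limma adjusted p = 0.128), as it was with quantile normalization (0.317). The same held without the filter (limma adjusted p = 0.0703) and with eBayes without trend (0.224).

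Hnrnpf, which binds runs of G near splice sites, lost footprints without losing RNA. Its footprints were 1779.9 and 1769 RPKM in untreated libraries, 1493 and 1531 at 6 h, and 1333 and 1277 at 21 h. Its RNA was 245 and 252 RPKM, 248 and 236 at 6 h, and 259.6 and 292 at 21 h. Footprints stepped down without overlap, and RNA overlapped at 6 h and was slightly above the untreated libraries at 21 h. The log2 change at 21 h was -0.48 for footprints (SE 0.07, limma adjusted p = 0.00102) and 0.06 for RNA (limma adjusted p = 0.566), and TE fell by 0.54 on the log2 scale (SE 0.09, limma adjusted p = 0.0394). The TE call was lost in 13 of 23 alternatives (limma adjusted p-values over the alternatives 5.93e-05 to 0.252, log2 values -0.70 to -0.50), 9 of which left out 1 library.

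Hnrnpr, Hnrnph3 and Hnrnpa0 completed the largest falls. Hnrnpr footprints were 102 and 118 RPKM in untreated libraries, 89.0 and 95.2 at 6 h, and 63.8 and 73.5 at 21 h (log2 change -0.71, SE 0.12, limma adjusted p = 0.00209), with RNA of 3.75 and 3.63, 2.89 and 2.91, and 2.30 and 2.81 RPKM (log2 change -0.53, limma adjusted p = 0.141). Hnrnph3, a relative of Hnrnpf, had footprints of 28.9 and 28.9, 22.8 and 19.7, and 19.3 and 16.5 RPKM (log2 change at 21 h -0.71, SE 0.14, limma adjusted p = 0.00474). Its RNA, on 3 to 19 reads per library, was 3.30 and 2.49, 3.41 and 3.72, and 0.582 and 3.68 RPKM, which is too few reads to place it. Footprints of both genes declined from group to group without overlap. Hnrnpa0 RNA was 50.4 and 53.7 RPKM in untreated libraries, 47.0 and 52.9 at 6 h, and 38.5 and 39.8 at 21 h (log2 change -0.49, SE 0.11, limma adjusted p = 0.0104). This call was lost with eBayes without trend (limma adjusted p = 0.0698) and without untreated replicate 2. Hnrnpa0 footprints were 189 and 213, 245 and 249.95, and 138 and 192 RPKM. Hnrnpul2 was the only hnRNP whose footprints rose at 21 h (log2 change 0.41, limma adjusted p = 0.0101), with a log2 RNA change of 0.21 that was not called (limma adjusted p = 0.21). Hnrnpa2b1, Hnrnpk, Hnrnpll and Hnrnpu made up the other called falls in footprints, with log2 changes from -0.39 to -0.22. Processed pseudogenes and close copies are common in these families, and the counting of reads that match several of them is not stated, so the levels of abundant hnRNPs such as Hnrnpa1 and Hnrnpa3 are uncertain.

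Gene by gene, RNA and footprint changes at 21 h ran together over the 37 members (Pearson's r 0.80, against 0.81 over all 9295 transcripts, a description across genes that share libraries). Of the 11 members called in both assays, 6 rose in both (Ddx5, Srsf5, Srsf6, Srsf7, Srsf11 and Tra2a), 4 fell in both (Ddx17, Hnrnpa2b1, Hnrnpa3 and Hnrnpd) and Rbm39 went opposite ways. Whether called or not, 7 of 37 members (18.9%) had RNA above 0 and footprints below 0, as did 11.6% of all transcripts. TE was below 0 in 24 of 37 members (64.9%) and in 54.8% of all transcripts, with medians of -0.15 and -0.04 on the log2 scale. After the 3 called members, the lowest TE values were those of Srsf4 (-0.52), Hnrnph1 (-0.47) and Srsf3 (-0.45), and Srsf2 had the highest (0.38), none of which was called (limma adjusted p = 0.401, 0.199, 0.0939 and 0.326). At 6 h the r was 0.48 over the members and 0.39 over all transcripts.

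**Figure D4:**
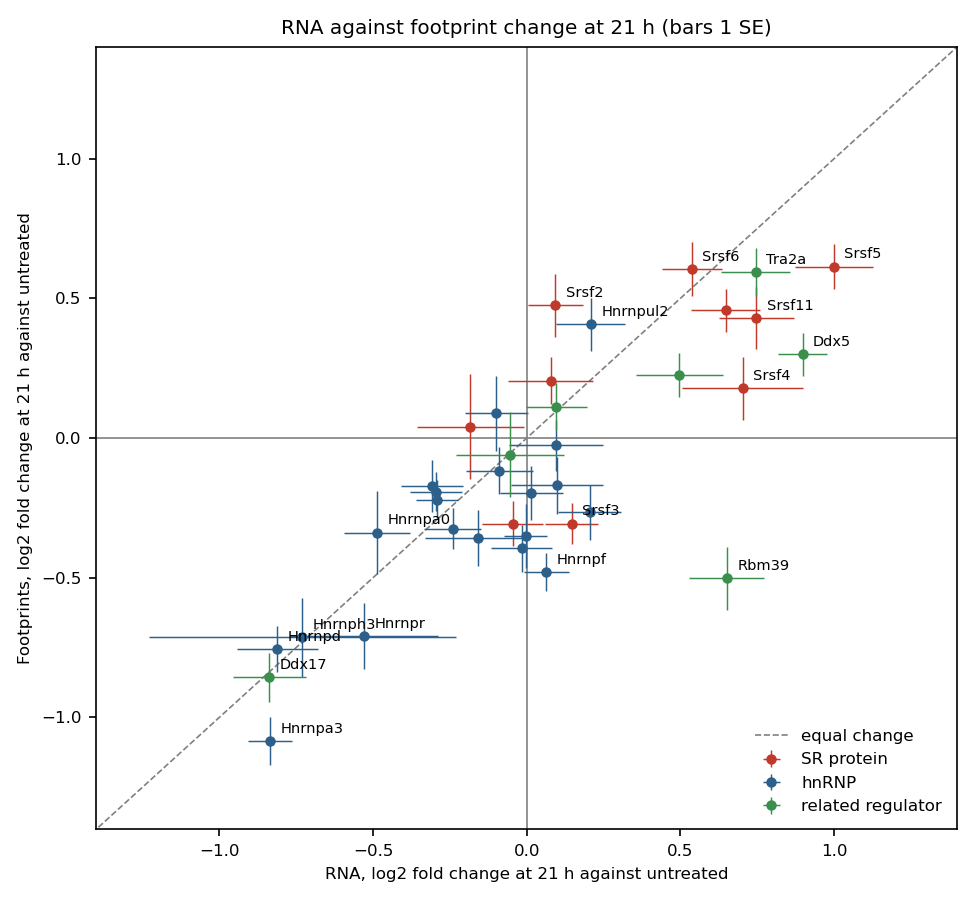
Log2 fold change of RNA (x axis) and of footprints (y axis) at 21 h against untreated cells for the 37 members, with bars of 1 SE and a dashed line of equal change. Most members lie near the line, and of the 7 with RNA above 0 and footprints below 0 Rbm39 lies farthest from the line, at 0.65 for RNA and -0.50 for footprints.

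The direct comparison of 21 h with 6 h called 16 of 37 members for footprints (30.7% of all transcripts), 8 for RNA (15.7%) and 3 for TE (1.01%). In it the untreated libraries enter only the estimate of the spread, the scaling factors and the filter on low RPKM. Hnrnpab footprints fell furthest between the times, by 1.01 on the log2 scale (limma adjusted p = 0.000617), and its TE fell by 0.87 (limma adjusted p = 0.0182). Rbm39 footprints fell by 0.62 and its RNA rose by 0.62, and its TE fell by 1.23 (SE 0.17, limma adjusted p = 0.00578). The Rbm39 call was lost in 2 of 23 alternatives, without the trend and without 6 h footprint replicate 2 (highest limma adjusted p = 0.0671). The Hnrnpab TE call was lost in 6, without the trend and without either 6 h footprint replicate, 21 h footprint replicate 2, 6 h RNA replicate 2 or 21 h RNA replicate 1 (highest limma adjusted p = 0.144). Hnrnpd TE rose by 0.63 (limma adjusted p = 0.0488), a call lost in 19 of 23 alternatives, among them the omission of any single library (highest limma adjusted p = 0.221). Between the times the RNA of Hnrnpd fell by 0.83 and its footprints by 0.20 (limma adjusted p = 0.00386 and 0.094). Leaving the scaling factors out moved the median of all transcripts by 0.14 for RNA and by -0.12 for TE in this comparison, and the changes given are relative to that median.

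The 5 transcripts whose values over the 12 libraries, centred within each assay, were most like those of Rbm39 were P4ha1 (Pearson's r 0.895), Sf3b3 (0.893), Creld2 (0.870), Anxa1 (0.867) and Gak (0.864), out of 9294 compared. Srsf3 was the next (0.861), and the nearest other member was Hnrnph1 at rank 43 (0.772). At 21 h none of the 5 was called for TE (log2 changes -0.74 to -0.33, limma adjusted p = 0.1065 to 0.232). Of the 5, only P4ha1 and Sf3b3 were called lower for footprints and only Gak was called higher for RNA. The likeness was chosen for, so no test was made of it.

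Other parts of the splicing machinery are given at 21 h for comparison, with 11.6% of all transcripts called higher and 12.2% lower for RNA, and 18.9% and 20.2% for footprints. Of 22 SR-related and speckle proteins, RNA of 10 rose and that of 2 fell, and footprints of 9 rose and those of 3 fell. Of 52 core spliceosome proteins, RNA of 19 rose and that of 1 fell, and footprints of 17 rose and those of 2 fell, with median log2 changes of 0.30 and 0.15. Of the SR protein kinases tested, 8 in number, RNA of Clk1 and Clk4 rose and 0 fell, while footprints of Clk1, Clk4 and Srpk1 rose and those of Dyrk1a fell. Of the other splicing regulators, RNA of 3 rose and that of 8 fell of 37 tested, with a median log2 change of -0.08, and footprints of 2 rose and those of 15 fell of 36 tested (median -0.18). Celf1, Celf2, Mbnl1, Mbnl2, Qk, Raly, Rbfox2 and Syncrip fell in both assays, and Ilf2 and Rbm5 rose in both. Of 17 genes of the exon junction complex and nonsense-mediated decay, RNA of 7 rose and that of 1 (Smg6) fell, and footprints of 9 rose and those of 1 fell. TE was called for 0 genes of these 5 lists at 21 h by limma, and their median TE changes were between -0.12 and 0.05 on the log2 scale.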

How the data were processed

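Ribosome profiling and RNA-seq of KPC cells (12 libraries, 2 per assay and group) were analysed from the RPKM values the authors deposited for a representative transcript of each gene, per coding length for footprints and per transcript length for RNA-seq. The submitters' processing notes name cutadapt, STAR and GRCm39, and the strand setting of the counting is not given in the sources used here. Values not listed were set to 0. RPKM multiplied by length gave whole reads for 100% of values (tolerance 0.02). Confidence intervals are those of limma and rest on the spread between libraries. Libraries of an assay were brought to a common scale with median-of-ratios factors. Transcripts with a mean of at least 1 were kept (10383 for footprints, 9443 for RNA, 9295 for TE), and limma 3.58.1 in R 4.3.3 was run on log2(RPKM + 0.5) (eBayes with trend, the 3 groups of an assay together, two-sided, Benjamini-Hochberg, threshold 0.05). TE was the interaction of assay and treatment over 12 libraries, taken as unpaired. Fold changes on this scale understate those of low transcripts, and the smallest exact permutation p for 2 libraries against 2 is 0.333.

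The members and lists were chosen with earlier results of these data known. Values in every library are given for the 7 single genes and members called for TE. They are also given for the 5 largest rises and 5 largest falls in each assay and time, among called members without overlap after scaling. The like genes are the 5 with the highest Pearson's r to Rbm39. Promoters came from RefSeq (GRCm38.p6). Each fit was repeated with a pseudocount of 0.1 or 1, a mean filter of 0 or 5, no scaling, quantile normalization, eBayes without trend, the compared groups only, a replicate block, voom on recovered reads, RNA-seq without Lars2, Tmem38b and Mettl26, and each library left out. The fits were run on simulated reads with 200 changed genes as a check of the code. The simulated spread was a set value, so this does not gauge error rates in these libraries. Python 3.11.15, pandas 2.3.3, numpy 2.4.6 and matplotlib 3.10.9 were used.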

Additional observations from a re-analysis of the deposited data

Results flagged for a closer look

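Results are listed here because the effects at the 2 times differed by a direct limma test of 21 h against 6 h. For footprints the log2 differences were -1.01 (Hnrnpab), -0.71 (Hnrnpa3), -0.63 (Hnrnpa0), -0.62 (Rbm39), -0.53 (Ddx17), -0.45 (Hnrnpr), -0.37 (Srsf1), -0.32 (Hnrnph1), -0.31 (Srsf3) and -0.23 (Hnrnpf) among those lower at 21 h. Those higher at 21 h were 0.32 (Srsf5), 0.32 (Tra2a), 0.38 (Srsf2), 0.40 (Srsf6), 0.50 (Ddx5) and 0.55 (Hnrnpul2).

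For RNA the log2 differences were -0.83 (Hnrnpd), -0.59 (Ddx17), -0.54 (Hnrnpa3), -0.50 (Hnrnpa0), 0.62 (Rbm39), 0.66 (Tra2a), 0.80 (Srsf5) and 0.85 (Ddx5). For TE they were -1.23 (Rbm39), -0.87 (Hnrnpab) and 0.63 (Hnrnpd). Groups of 2 libraries are too small to look for a single library that stands apart.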

How the results depend on the processing

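Of 30 calls of named members, 17 were lost in no alternative, 13 in at least 1, and 0 changed direction. Counts of called members moved by more than 1.5 times in some alternatives, and the cause was not tested. Footprints at 6 h (3 called) gave 0 without the filter, 0 without the trend, 0 with a replicate block, 14 with voom, and 0 to 3 with 1 library left out. Footprints at 21 h (22) gave 13 without the trend and 16 to 20 with 1 library left out. RNA and TE at 6 h (0 each) gave 2 each with voom and 0 with 1 library left out. RNA at 21 h (15) stayed within 1.5 times throughout and gave 11 to 16 with 1 library left out. TE at 21 h (3) gave 1 without the filter, 0 without the trend, 0 with the compared groups only, 0 with a replicate block, 5 with voom, and 0 to 3 with 1 library left out. Between 21 h and 6 h, footprints (16) gave 6 without the trend and 6 to 16 with 1 library left out (7 without 6 h replicate 1 and 6 without 6 h replicate 2), RNA (8) gave 3 without the trend and 7 to 9, and TE (3) gave 5 unscaled, 0 without the trend, 6 with voom and 0 to 3.

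Differences between replicates correlated at -0.073 to 0.055 between groups, so libraries of the same number shared little spread. The labels do not tell whether a footprint and an RNA-seq library came from the same lysate. These correlations cannot settle that. Of the 30 calls the replicate block lost 6, for TE at 21 h in Rbm39 (limma adjusted p = 0.056), Ddx5 (0.121) and Hnrnpf (0.138) and for footprints at 6 h in Hnrnpa1 (0.0728), Hnrnpab (0.0571) and Hnrnpd (0.0564). It also lost the Hnrnpd TE call between the times. Hnrnph3 had 3 to 19 RNA reads per library, which limits its RNA and TE values.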
